A study of Rattus norvegicus with 6 samples.

Results

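Axl, Colec12 and Tspo are 3 genes of scavenging, dying-cell clearance and glial activation. They were selected from the study's own lists of differentially expressed genes, so they were chosen by the same predator odor (PO) comparison, and the same 6 libraries, in which their levels are described here. They are 3 of the 29039 features in the deposited count table, of which 16685 had enough counts to be tested. The differences of these 3 genes between the groups are therefore given as a description, with no test. All rats were male Sprague Dawley rats of about 10 months, habituated to handling and to control odor every day before the experiment. The control odor group (replicates C2, C3 and C4) received a piece of clean towel in the home cage, and the PO group (replicates P8, P13 and P14) a piece of towel that had served as ferret bedding, each for 20 minutes. RNA came from bilateral micropunches of the ventromedial hypothalamus (VMH), and each of the 6 rats gave 1 library. A micropunch holds neurons, glia, vessels and any neighbouring tissue it takes in, so in these bulk libraries fewer cells of a type and less RNA per cell cannot be told apart.

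Axl is a receptor tyrosine kinase of the TAM family, named for Tyro3, Axl and Mertk. Its ligand Gas6 bridges it to phosphatidylserine, the lipid that dying cells expose on their surface, and signaling through Axl supports engulfment and dampens inflammatory responses. Colec12, also known as CL-P1, is a membrane scavenger receptor with a collagen-like stalk and a C-type lectin head, and it binds oxidized lipoproteins, microbes and sugars. Tspo, the translocator protein, sits in the outer mitochondrial membrane and binds cholesterol. Its ligands are used as imaging tracers of activated glia, since Tspo increases in microglia and astrocytes of injured or inflamed brain, and it is also expressed by endothelial and ependymal cells.

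Axl and Colec12 were lower and Tspo was higher in the PO libraries. Of the 3 genes, 2 matched an entry in the table of upstream sequences, Axl and Colec12 but not Tspo, and these are shown so that the pair with lower levels can be compared. The 250 bases before the annotated start of each gene are printed 5′ to 3′ from RefSeq, on build GRCr8, with GGGCGG (the GC box, on either strand) in capitals. The counts were made on build Rnor_5.0, and the coordinates refer to GRCr8 only. The Axl stretch is chr1:90424010-90424259 on the minus strand, and the Colec12 stretch is chr18:1005537-1005786 on the plus strand.
Axl: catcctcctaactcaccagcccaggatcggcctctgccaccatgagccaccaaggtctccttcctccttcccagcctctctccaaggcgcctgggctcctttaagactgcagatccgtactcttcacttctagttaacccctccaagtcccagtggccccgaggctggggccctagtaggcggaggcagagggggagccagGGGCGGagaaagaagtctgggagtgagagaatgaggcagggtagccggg
Colec12: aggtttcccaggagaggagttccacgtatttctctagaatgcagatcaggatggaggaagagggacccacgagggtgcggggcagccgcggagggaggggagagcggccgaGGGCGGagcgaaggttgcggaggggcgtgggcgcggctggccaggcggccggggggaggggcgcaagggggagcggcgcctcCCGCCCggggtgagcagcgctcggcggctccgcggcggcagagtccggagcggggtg

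The Axl stretch held 1 GC box, which began 49 bases before the start. The Colec12 stretch held 2, which began 139 and 57 bases before the start. At least 1 GC box stood in 30.5% of the 33469 upstream stretches of the same length. The Colec12 stretch had a GC content of 73.6% and 28 CpG dinucleotides, above 95.5% and 93.2% of all stretches. The Axl stretch had a GC content of 61.6% and 7 CpG dinucleotides, against medians of 51.2% and 5 over all stretches. On either strand, neither stretch held TGANTCA (AP-1), TGACGTCA (the cyclic AMP response element), TATAAA (the TATA box), CCAAT (the CCAAT box) or GGAATG (TEAD). These stood in 6.34%, 1.59%, 12.9%, 34.0% and 12.1% of all stretches. A match is a description of these letters and not of a factor bound there.

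Library totals lay between 15835375 and 20316213 counts, and the values below rest on between 55 and 327 counts per gene and library. The unit of level is CPM, in which every library is brought to the same total, after TMM, a factor that aligns the bulk of genes between libraries. The TMM factors lay between 1.01 and 1.03 in control odor libraries and between 0.957 and 0.992 in PO libraries. The share of clean reads mapped across a splice site was 25.73% to 25.84% in control odor libraries and 25.14%, 25.76% and 24.84% in P8, P13 and P14. The part of this difference in the levels below was not tested. The sources used here pair 175 feature IDs with a gene name, nearly all from genes called in these libraries. No marker of VMH neurons was among them, so the dissected region was not checked against its markers.

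Axl (ENSRNOG00000020716) stood at 18.5, 19.1 and 17.6 CPM in C2, C3 and C4, on 327, 312 and 326 counts. It stood at 11.1, 13.7 and 11.1 CPM in P8, P13 and P14, on 221, 248 and 186 counts. The 3 control odor libraries lay close together and above all 3 PO libraries, and among the latter P13 came nearest to them. The group values were 18.4 ± 0.78 and 12 ± 1.49 CPM (SD, n = 3). The log2 fold change, PO over control odor, was -0.62 (standard error 0.12), a level 35.0% lower. The lowest control odor library was 1.28-fold above the highest PO library. Without P13 the log2 fold change was -0.72, and without P8 it was -0.56.

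**Figure D1:**
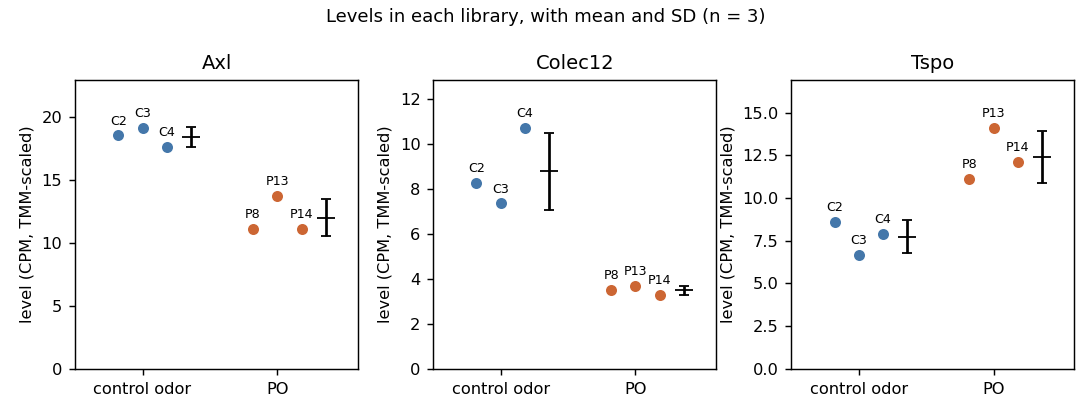
Level of Axl, Colec12 and Tspo (CPM, TMM-scaled, axes from 0) in each of the 3 control odor and 3 PO libraries, named beside the points, with the mean and SD (n = 3) at the right of each group. In each gene the 2 groups do not overlap, with Axl and Colec12 lower in PO and Tspo higher.

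Colec12 (ENSRNOG00000016366) showed the largest difference of the 3 genes. It stood at 8.27, 7.35 and 10.7 CPM in C2, C3 and C4, on 146, 120 and 198 counts. In P8, P13 and P14 it stood at 3.5, 3.7 and 3.29 CPM, on 70, 67 and 55 counts. The PO libraries were nearly alike, and the spread lay in the control odor group, where C4 was the highest. The group values were 8.77 ± 1.71 and 3.5 ± 0.203 CPM (SD, n = 3). The log2 fold change was -1.32 (standard error 0.19), a level 60.1% lower. The lowest control odor library was 1.99-fold above the highest PO library. Without C4 the log2 fold change was -1.16, and without C3 it was -1.44.

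Tspo (ENSRNOG00000010549) was the member with higher levels after PO exposure. It stood at 8.61, 6.68 and 7.92 CPM in C2, C3 and C4, on 152, 109 and 147 counts. In P8, P13 and P14 it stood at 11.1, 14.1 and 12.1 CPM, on 222, 256 and 202 counts. C3 was the lowest and P13 the highest library, and every PO library lay above every control odor library. The group values were 7.74 ± 0.978 and 12.4 ± 1.54 CPM (SD, n = 3). The log2 fold change was 0.68 (standard error 0.15), a level 60.5% higher. The lowest PO library was 1.29-fold above the highest control odor library. Without C2 or P8 the log2 fold change was 0.77, and without C3 or P13 it was 0.59.

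The counting error of single libraries differed between the 3 genes. With each count divided by its library total and not scaled by TMM, the exact 95% Poisson intervals, on the scale of CPM, did not overlap in any of the 9 pairs that set 1 library of each group against each other for Axl or for Colec12. For Tspo they were apart in 7 of 9 pairs. The interval of C2 (7.48 to 10.3) met those of P8 (9.54 to 12.5) and P14 (10.0 to 13.3). Within the groups, 1 of the 6 pairs of libraries was apart for Colec12, C3 (6.28 to 9.06) against C4 (9.33 to 12.4), and 0 of 6 for Axl and for Tspo. These intervals cover counting error only. The genes were chosen by this comparison, so the pairs apart between the groups are a description. The share of all genes tested with as many pairs apart was not computed.

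The coefficient of variation over the 3 PO libraries was 5.8% for Colec12, 12.5% for Axl and 12.4% for Tspo. In control odor libraries it was 19.6% for Colec12, 4.24% for Axl and 12.6% for Tspo. Counting error alone gives 12.6% for Colec12 in PO libraries and 5.58% for Axl in control odor libraries, so these SDs were no larger than counting error. The others were above counting error, which was 8.17% for Colec12 in control odor libraries, 6.8% for Axl in PO libraries and 8.65% and 6.67% for Tspo in control odor and PO libraries. The biological coefficient of variation that edgeR fitted was 0.124 for Axl, 0.18 for Colec12 and 0.152 for Tspo, each under the trend at its level (0.147, 0.205 and 0.173).

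All 3 genes passed DESeq2 at an adjusted p under 0.05, the tool of the study, as did 6.31% of the 13707 genes to which it gave an adjusted p. With edgeR's quasi-likelihood test 1 of the 3, Colec12, passed, against 0.354% of the 16685 genes tested. The rule chose the genes by this comparison, so neither count is a result about them. The count with edgeR was 0 without C2, C4 or P14, where 9 of all genes tested passed in each. It was 0 without the robust option, where 2 of 16685 passed. It was 2 (Axl and Colec12) without P13, where 266 of 16989 genes passed. With library size alone as the scale it was also 2 (the same genes), where 103 of 16685 passed. It was 3 with no filter on low counts, where 433 of 22185 passed. These counts are no result about the members either. The 3 PO libraries all lay below the 3 control odor libraries in 13.2% of genes tested, as they did for Axl and Colec12, and all above in 13%, as they did for Tspo. Among the genes tested, the log2 fold change of Colec12 was above that of 0.701% of genes and that of Axl above 4.4%. That of Tspo was exceeded by 2.88% of genes. Of genes within 0.5 log2 CPM of the mean level of each, 3.97% differed at least as much as Axl in either direction, 1.41% at least as much as Colec12 and 4.43% at least as much as Tspo.

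**Figure D2:**
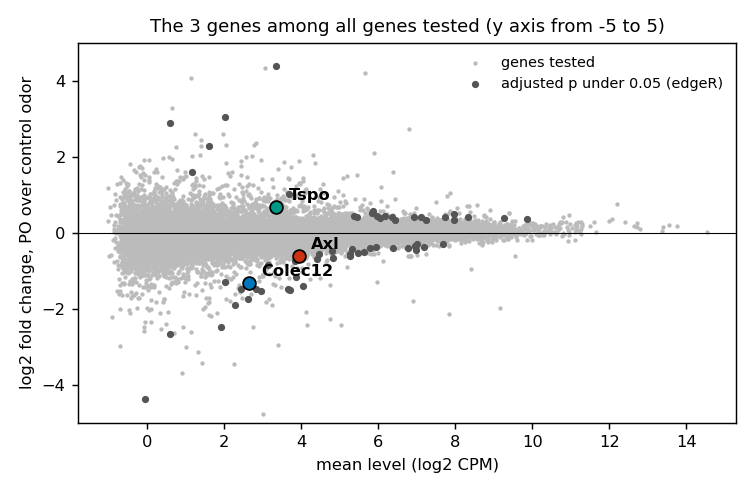
Log2 fold change, PO over control odor, against the mean level in log2 CPM for the 16685 genes tested (grey), with those past edgeR's adjusted p of 0.05 in dark grey and Axl, Colec12 and Tspo as large named points. The y axis leaves out 1 gene. Colec12 lies at -1.32, Axl at -0.62 and Tspo at 0.68, with Tspo between Colec12 and Axl in mean level.

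Levels were compared between the 3 genes in FPKM, which divides by gene length (2654 bases for Axl, 2887 for Colec12 and 841 for Tspo, as the deposited FPKM imply). In FPKM the order was Tspo, Axl and Colec12 in all 6 libraries. Tspo stood at 10.5, 8.18 and 9.51 FPKM in C2, C3 and C4 and at 13, 16.7 and 13.7 in P8, P13 and P14. Axl stood at 7.15, 7.42 and 6.69 FPKM in control odor libraries and at 4.1, 5.11 and 4.01 in PO libraries, in the same order of replicates. Colec12 stood at 2.94, 2.62 and 3.73 FPKM and at 1.19, 1.27 and 1.09. In control odor libraries Tspo and Axl were neighbours, with 9.4 ± 1.16 and 7.09 ± 0.373 FPKM (SD, n = 3). In PO libraries they stood at 14.5 ± 1.93 and 4.41 ± 0.612 FPKM (SD, n = 3). Averaged over the 6 libraries, Tspo lay above 61.7% of the genes tested in FPKM, Axl above 47.0% and Colec12 above 27.8%.

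A ratio of 2 genes within a library is not changed by how libraries are scaled. The ratio of Tspo to Axl in FPKM was 1.47, 1.1 and 1.42 in C2, C3 and C4 and 3.17, 3.26 and 3.43 in P8, P13 and P14. The PO libraries were close to each other and all above the control odor libraries, by 1.31 on the log2 scale (means 0.4 ± 0.23 and 1.72 ± 0.06, SD, n = 3). In PO libraries counting error alone gives 6.67% for Tspo and 6.8% for Axl, which is more than this spread. The closeness of the PO ratios is therefore no result about the genes. The ratio of Tspo to Colec12 was 3.57, 3.12 and 2.55 in control odor libraries and 10.9, 13.1 and 12.6 in PO libraries, a difference of 2.0 on the log2 scale. The ratio of Colec12 to Axl was 0.41, 0.354 and 0.558 in control odor libraries and 0.291, 0.248 and 0.272 in PO libraries. Thus Colec12 was lower than Axl in both groups, and more so in PO libraries, with a difference of -0.68 on the log2 scale (means -1.21 ± 0.34 and -1.89 ± 0.12, SD, n = 3). Without C4 this difference was -0.5, and without C3 it was -0.83. These ratios use the values that chose the genes and carry no test.

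**Figure D3:**
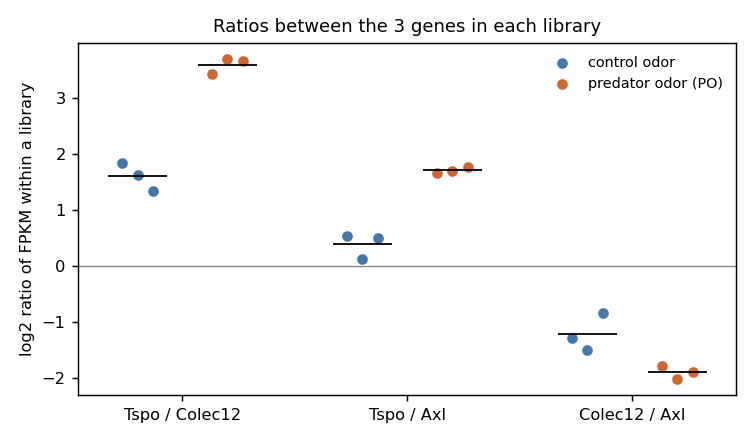
Log2 ratio of FPKM between the 3 genes within each library, with control odor libraries in blue, PO libraries in orange and a line at each group mean. The PO libraries lie above the control odor libraries for both ratios of Tspo and below them for Colec12 over Axl.

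Within the groups the 3 genes did not keep 1 order of libraries. Among control odor libraries Axl was highest in C3, Colec12 in C4 and Tspo in C2. Relative to the group mean on the log2 CPM scale, Colec12 lay at 0.3 in C4 and -0.23 in C3, Tspo at 0.16 in C2 and -0.2 in C3, and Axl between -0.07 and 0.06. Among PO libraries all 3 genes were highest in P13, where Axl lay 0.2, Tspo 0.19 and Colec12 0.08 above the group mean. Within a group, the counting intervals were apart only for Colec12 between C3 and C4. In all other pairs they overlapped, so these orders may be counting error.

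The named genes whose levels were most like each member over the 6 libraries were ranked by Pearson r of log2 CPM. These r rest on 6 points that share the PO difference, and all the named genes come from lists of genes called in these libraries, so they are a description. For Axl the 5 highest were AABR07027306.1 (r = 0.99), Srsf5, Nipal3 and Tmem161b (0.98 each) and LOC103689965 (0.97). LOC103689965, a complement C4-like gene, had a mean of 11.1 CPM under control odor and of 5.7 CPM under PO. For Colec12 they were Prdm6 (r = 1.0), Shisal2a (0.99), and Fndc9, Fgl2 and Fam171a1 (0.98 each). Prdm6 had a mean of 1.14 CPM in control odor libraries and no count in any PO library, so it entered the test through the control odor group alone and its r rests on that floor. Shisal2a stood at 2.16 and 0.505 CPM, so its PO level was also near the floor. Fgl2, a fibrinogen-like protein, stood at 8.36 and 4.07 CPM. For Tspo they were LOC680885 (r = 0.99), Ppt2 (0.98), Tctex1d4 and Elof1 (0.97 each) and Kcnk16 (0.96). Ppt2, a lysosomal thioesterase, stood at 37.1 and 49.7 CPM. Tctex1d4 stood at 0.585 and 2.29 CPM, so its control odor level was near the floor. An r over 0.9 was reached with Axl by 2.75% of all other genes tested, with Colec12 by 2.36% and with Tspo by 1.79%.

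Clearance genes around the 3 members were sought by name. The 6 pathway lists held the other TAM receptors and their ligands, dying-cell clearance, scavenger receptors, collectins, Tspo partners with mitochondrial steroid synthesis, and glial activation. Of their 108 genes, 0 had a name in the sources used here, so they are given no value. The authors' deposited annotation of called genes was used in their place, chosen after the values were seen. It lists Axl under 188, Tspo under 199 and Colec12 under 36 of its 1132 terms of the Gene Ontology (GO). All 3 share 16 terms, Axl and Tspo share a further 71, Axl and Colec12 a further 7 and Colec12 and Tspo a further 3.

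Under the GO term phagocytosis stood 4 called genes, Axl, Colec12, Syt11 and Tub, and the mean of each was lower under PO. Syt11, a synaptotagmin of vesicle trafficking, had a log2 fold change of -0.33, with 256.0 ± 20.2 and 205.0 ± 12.3 CPM (SD, n = 3). Tub, the tubby protein, had one of -0.49, with 32.8 ± 3.62 and 23.2 ± 2.59 CPM (SD, n = 3). Of the 4 genes, Colec12 passed edgeR, whereas 51 of the 174 named genes tested (29.3%) did. The wider term endocytosis also holds Axl and Colec12, and of its 8 called genes 3 had higher and 5 lower means, with 2 past edgeR. Under gliogenesis stood 8 called genes, Tspo among them, of which 6 had higher and 2 lower means after PO exposure. Sirt2, a deacetylase of oligodendrocytes, rose by 0.4 on the log2 scale, with 280.0 ± 9.28 and 369.0 ± 19.0 CPM (SD, n = 3). Mt3, a metallothionein of the brain, rose by 0.38, with 538.0 ± 16.6 and 698.0 ± 62.7 CPM (SD, n = 3). Olig2, Sirt2 and Mt3 passed edgeR, and Tspo, Cd9, Nkx6-2, Sun1 and Mmp14 did not. These counts stand beside the 29.3% of named genes that passed. Sun1 and Mmp14, a membrane metalloprotease, had log2 fold changes of -0.54 and -0.76. Both also stand with Tspo under glial cell migration, a term of 3 called genes of which 1, Tspo, had a higher mean and 0 passed edgeR. Axl was the 1 called gene under neutrophil clearance. The terms hold only genes that the authors called in these libraries, so these directions are not independent of the choice of genes.

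Markers of other cell types were measured in the same libraries. Leptomeningeal fibroblasts line the inner meninges. A name was at hand for 9 of their 18 markers, and the mean of each of the 9 was lower under PO. Their summed level was 187.0, 152.0 and 238.0 CPM in C2, C3 and C4 and 78.3, 46.0 and 38.3 CPM in P8, P13 and P14, and none of the 9 was at 0 in any library. Among control odor libraries this sum and Colec12 had the same order, lowest in C3 and highest in C4. Among PO libraries the order was not the same, with the sum highest in P8 and Colec12 in P13. Within the groups, the counting intervals of Colec12 were apart only between C3 and C4. The share of all genes with the order of this sum was not computed, and a shared source was not tested. Of the 9, Slc6a13, Slc22a6 and Crabp2 passed edgeR (log2 fold changes -1.49, -2.47 and -1.48; adjusted p = 0.0481 each), a share close to the 29.3% of all named genes. The number was 8 with DESeq2, where 865 of all genes passed, and 5 without P8, where 135 did. It was 1 without C2, C3, P13 or P14, where 9, 15, 266 and 9 genes passed. It was 0 without C4, without the robust option or with limma voom, where 9, 2 and 16 passed. The share of all named genes that passed each alternative was not computed. The lowest value of a marker was 0.11 CPM, of Osr1 in a PO library. The study called these genes in the same libraries, so the 9 are not independent evidence of a direction.

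Olig2, the 1 of 12 oligodendrocyte markers with a name, stood at 46.5, 50.8 and 43.3 CPM in C2, C3 and C4 and at 69.4, 68.9 and 71.6 CPM in P8, P13 and P14. It passed edgeR (log2 fold change 0.58, adjusted p = 0.0238), but not without C2, without C4 or without the robust option. Folr1, the 1 of 8 choroid plexus markers with a name, stood at 5.15, 3.8 and 3.77 CPM and at 8.11, 17.2 and 8.74 CPM in the same order. Among PO libraries it was highest in P13. Folr1 did not pass edgeR (log2 fold change 1.42, adjusted p = 0.077), but passed with DESeq2 and in edgeR without P8 or without P13. Of 20 microglia, 10 astrocyte, 10 endothelial, 10 pericyte and 10 ependymal markers, 0 had a name here and they are given no value. The part of these cell types in the levels of Axl, Colec12 and Tspo was not tested.

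**Figure D4:**
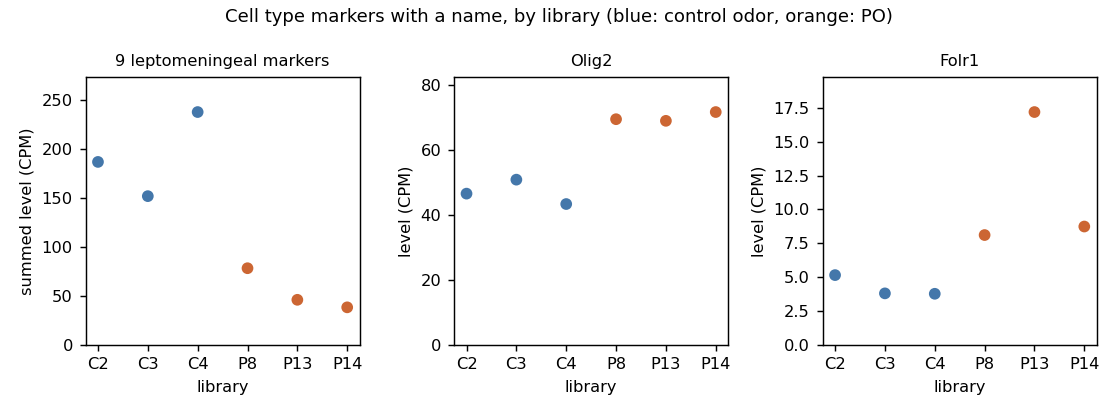
Summed level of the 9 leptomeningeal markers with a name, and levels of Olig2 and Folr1, in CPM in each library (axes from 0), with control odor libraries in blue and PO libraries in orange. The leptomeningeal sum spans 152.0 to 238.0 CPM under control odor and 38.3 to 78.3 CPM under PO, and Folr1 is highest in P13.

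The direction of each of the 3 differences was the same under every alternative tried. These were other normalizations, tests and filters, FPKM in place of counts and each library left out. Leaving out 1 library could not turn a direction, since the groups do not overlap in any of the 3 genes. The other alternatives reuse the same counts by which the genes were chosen. Over all alternatives the log2 fold change of Axl lay between -0.72 and -0.56, that of Colec12 between -1.44 and -0.9 and that of Tspo between 0.57 and 0.77. The value of -0.9 for Colec12 was that on log2(FPKM + 1), a scale on which low levels move less, and the others lay at -1.16 or below.

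**Figure D5:**
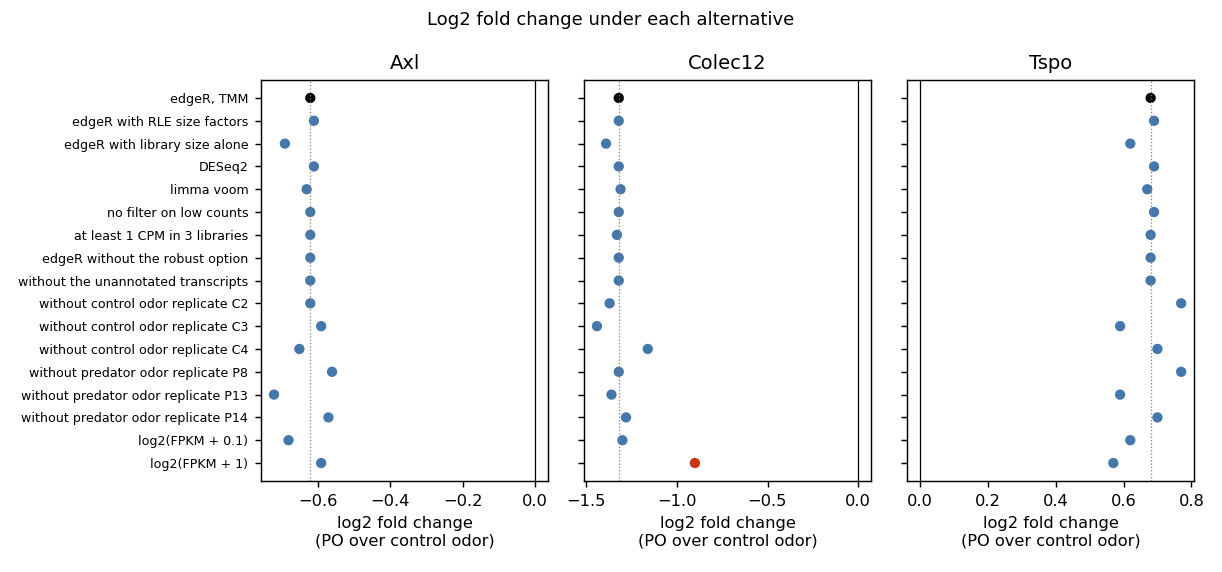
Log2 fold change, PO over control odor, of Axl, Colec12 and Tspo under the reported fit (black, dotted line) and each alternative (blue, or red where it moved by more than the spread between replicates). All values of Axl and Colec12 lie below 0 and all values of Tspo above 0, and the red point is Colec12 on log2(FPKM + 1).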

How the data were processed

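Bulk RNA of VMH micropunches from 6 rats was analysed, 3 per group, grouped by the submitters' labels. Raw counts for each gene were deposited by the authors, made with HISAT2 on Rnor_5.0 and HTSeq in union mode, and FPKM computed from those counts with a fixed length per gene. The submitters' notes also name CASAVA 1.8 and DESeq. Other deposited values are splice reads as a percent of clean reads. The authors' p-value and log2 fold change columns hold their own comparison and were not used, and only gene names and GO membership were read from those tables. No source names the strand setting of the counting, so reads of a gene and of an antisense partner could not be told apart.

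From the counts, edgeR 4.0.16 was run in R 4.3.3 with TMM, filterByExpr and a robust quasi-likelihood fit on 16685 genes (common biological coefficient of variation 0.142), with Benjamini-Hochberg adjustment at 0.05. DESeq2 1.42.0 and limma 3.58.1 (voom) were alternatives. Log2 CPM used a prior count of 2. The standard error of a log2 fold change was its size divided by the square root of edgeR's quasi-likelihood F statistic. It is therefore not independent of that test. The fits were tested on simulated data. Figures were drawn with Matplotlib 3.10.9, and tables were made in Python 3.11.15 with SciPy 1.17.1, NumPy 2.4.6 and pandas 2.3.3. The 175 names came from the authors' called genes (131), the paper's table of top genes (40) and Entrez IDs of the KEGG table matched to RefSeq symbols (4). The members, lists and tests were chosen with earlier results of these data known. Named genes were the members, list genes past edgeR and, per member, the 5 named genes of highest r. Folr1, Osr1 and the GO terms with their genes fall outside this rule and were added after the values were seen.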

Additional observations from a re-analysis of the deposited data

How the results depend on the processing

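The number of genes past edgeR's adjusted p of 0.05 was 59. It was 103 with library size alone as the scale, 433 with no filter on low counts, 2 without the robust option, 865 with DESeq2 and 16 with limma voom, and lay between 9 and 266 with 1 library left out. The cause of these differences was not tested. The log2 fold change of Colec12 was -0.9 on log2(FPKM + 1) in place of -1.32. No other alternative moved the log2 fold change of Axl, Colec12 or Tspo, or the ratios of Tspo and Colec12 to Axl, by more than the spread between replicates. None turned a direction, which leaving out 1 library could not do, since the groups do not overlap in any of these values. The planned count over the pathway lists could not be made, since 0 of their 108 genes had a name here. With 3 rats per group, an exact permutation test of 1 gene could not have given a p under 0.05, whatever its counts. The labels share no replicate number between the groups.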
